A study of Mus musculus with 9 samples.

Results

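The genes described here are 8 chloride-handling genes measured in the ribosome-associated RNA of CA3/CA2 PV INs. They were chosen by name: the cation-chloride cotransporters Slc12a2, Slc12a5 and Slc12a7, and the ClC genes Clcn2, Clcn3, Clcn5, Clcn6 and Clcn7. The deposited counts list 37620 gene identifiers, of which 15069 passed the filter on low values, and all 8 genes were among them. Each gene was matched by its Ensembl identifier.

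The samples came from PV-Cre;Rpl22HA mice, in which Cre expressed from the Pvalb locus switches on an HA-tagged copy of the ribosomal protein Rpl22 in PV-expressing cells, so that ribosomes and the RNA on them can be immunoprecipitated (RiboTag). At 2 months of age, mice received lentivirus in the dentate gyrus (DG), and CA3/CA2 tissue was collected 2 weeks later. In the shRNA group (4 samples) the virus carried a hairpin against Ablim3, an actin-binding protein of mossy fiber terminals that restrains their contacts onto PV INs, and in the shNT group (5 samples) it carried a non-target hairpin. The question was how the translated RNA of PV INs differs when they receive more mossy fiber input. Each sample pooled 6 mice of both sexes, so the p-values measure the spread between pools of mice. Both groups carried the Cre and the tagged allele, neither was free of virus, and Ablim3 was targeted in the DG and not in the cells whose ribosomes were captured.

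Neurons set the direction of current through GABA-A receptors by their chloride gradient. NKCC1, the product of Slc12a2, brings chloride into the cell together with sodium and potassium, and KCC2, the product of Slc12a5, is the neuronal cotransporter that carries it out with potassium. A high KCC2 to NKCC1 balance goes with hyperpolarizing GABA responses in mature principal neurons, and kinases of the WNK and SPAK/OSR1 families turn NKCC1 on and the KCCs off by phosphorylation. The ClC family holds plasma membrane chloride channels such as ClC-2 and intracellular chloride/proton exchangers, among them ClC-3, ClC-5, ClC-6 and ClC-7, that serve endosomes and lysosomes.

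Gene reads per sample ran from 18281719 to 34578837. Reads outside annotated exons made up 9.76 to 11.3% of reads in 4 shNT samples and 18.6% in shNT 2, and they made up 12.4 to 12.5% in shRNA 2 and 3, 19.8% in shRNA 1 and 27.2% in shRNA 4. Pvalb was 998 ± 287 CPM (reads scaled to library size, SD, n = 5) in shNT and 526 ± 163 CPM (n = 4) in shRNA, with overlapping ranges and an FDR of 0.0678. Ablim3 stood at 16.9 ± 5.16 and 18.5 ± 3.42 CPM, an FDR of 0.701 in a tissue that was not the one targeted. The summed CPM of 12 PV IN markers was 5371 in shNT 2 and 7838 to 8791 in the other shNT samples, and 3223 in shRNA 4 and 5530.5 to 7880 in the other shRNA samples. In shRNA 4, the summed CPM of 10 astrocyte markers was 5624 and that of 8 endothelial markers 701, against highest values of 1671 and 282 in any other sample. Values without shRNA 4 or shNT 2 are given beside the results they move most. In such bulk samples, fewer cells of a type and less RNA per cell cannot be told apart.

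Start-site sequence of these genes is shown because Clcn7 and its relatives are counted among lysosomal genes, whose promoters often carry E-boxes with the letters CACGTG. RefSeq windows of 300 bases on GRCm38.p6, from 250 bases before to 50 after a start, were found for 7 of the 8 genes (12 windows, since a gene can have several starts). CACGTG, which reads the same on both strands, occurred in 7.15% of all 32851 such windows and in 5 of the 12 here, which belong to Clcn6, Clcn7, Slc12a5 and Slc12a7, the last through overlapping windows that hold the same site. It occurred at least 2 times in 0.59% of all windows and in 2 of the 12, one of Clcn6 and one of Clcn7. TGACGTCA, the letters of the cAMP response element, occurred in 1.79% of all windows and here in 1, that of Clcn3. These matches describe letters only, not binding. In the lines that follow, each 170-base stretch runs 5′ to 3′ on the gene's strand from 150 bases before the start, on GRCm38.p6 coordinates, and the capitals mark CACGTG, or TGACGTCA in Clcn3.
Clcn6, chr4:148038794-148038963 (- strand): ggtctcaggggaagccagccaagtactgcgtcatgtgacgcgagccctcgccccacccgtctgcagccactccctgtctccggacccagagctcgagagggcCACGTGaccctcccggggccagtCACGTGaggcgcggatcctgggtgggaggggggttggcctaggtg
Clcn7, chr17:25133241-25133410 (+ strand): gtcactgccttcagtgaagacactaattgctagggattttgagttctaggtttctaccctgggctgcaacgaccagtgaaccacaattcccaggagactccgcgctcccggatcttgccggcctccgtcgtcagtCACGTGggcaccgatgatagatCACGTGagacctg
Slc12a5, downstream of its other listed start, chr2:164967838-164968007 (+ strand): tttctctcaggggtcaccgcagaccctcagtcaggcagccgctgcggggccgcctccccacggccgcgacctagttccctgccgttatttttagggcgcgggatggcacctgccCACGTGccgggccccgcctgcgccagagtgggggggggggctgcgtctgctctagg
Slc12a7, chr13:73763510-73763679 (+ strand): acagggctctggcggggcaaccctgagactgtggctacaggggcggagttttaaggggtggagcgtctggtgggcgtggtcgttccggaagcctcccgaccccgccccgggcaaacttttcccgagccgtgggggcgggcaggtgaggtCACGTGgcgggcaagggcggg
Clcn3, chr8:60983292-60983461 (- strand): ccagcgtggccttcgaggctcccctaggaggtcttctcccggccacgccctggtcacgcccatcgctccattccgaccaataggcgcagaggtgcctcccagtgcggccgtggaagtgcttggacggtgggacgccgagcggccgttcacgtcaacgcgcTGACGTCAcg
The pair of E-boxes in Clcn6 begin 48 and 25 bases before its start, and those of Clcn7 15 bases before the start and 8 after it. The windows of Clcn2 and Clcn5 held neither set of letters. Other letters were searched on both strands. GGGCGG (GC box) was in 8 of the 12 windows and 35.66% of all, CCAAT in 3 and 37.41%, TATAAA in 1 and 13.62%, and GCGNGGGCG (the EGR site) in 0 and 5.55%. For the lysosomal CLEAR element, only an exact string that extends CACGTG on both sides was searched, and it was in 0 and 0.33%. Variants of that string that differ in the outer letters were not counted. The 0 therefore does not show that these windows lack sites of the CLEAR type.

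The genes lie on 8 different chromosomes, and the gene positions that follow are those of the mm9 annotation, the build of the counts. Slc12a2 spans chr18:58038332-58106475 on the + strand, Slc12a5 chr2:164786316-164825228 (+) and Slc12a7 chr13:73870542-73954191 (+). Clcn2 spans chr16:20703037-20717819 (-), Clcn3 chr8:63389186-63462097 (-), Clcn5 chrX:6730936-6896484 (-), Clcn6 chr4:147378368-147412930 (-) and Clcn7 chr17:25270336-25299049 (+). Reads were assigned to annotated exons without regard to strand, and 2.77% of the exon bases of Clcn2 are shared with Fam131a and Polr2h on the other strand, and 2.62% of those of Slc12a5 with Gm11459. The other 6 genes share none. The counts are per gene, so splice forms such as the variants of KCC2 or ClC-3 are not separated.

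Per kb of exon, the levels of the 8 genes in shNT samples covered a wide range. Slc12a5 was highest at 41.7 ± 14.5 CPM per kb (n = 5), at the 88.7th percentile of tested genes. Clcn3 followed at 16.6 ± 1.93, and then Clcn6 at 10.4 ± 2.62 and Clcn7 at 10.3 ± 3.39. The voltage-gated channel gene Clcn2 stood at 5.11 ± 1.05 CPM per kb and Slc12a2 at 3.20 ± 0.518, the 42.7th percentile. Clcn5, best known for endosomal function in the kidney, and Slc12a7, which encodes the widely expressed cotransporter KCC4, were near the bottom at 0.460 ± 0.160 and 0.294 ± 0.120 CPM per kb, the 13.9th and 9.54th percentiles. Within each shNT sample, neighbours kept this order except for 2 pairs. Clcn6 exceeded Clcn7 in 3 of 5 samples and Clcn5 exceeded Slc12a7 in 4 of 5. Across samples the ranges overlapped for these pairs, so their order is not set beyond the spread. The ranges of Clcn7 and Clcn2 and of Clcn2 and Slc12a2 also overlapped, although the first of each pair was higher within 5 of 5 shNT samples. The order of the group means was the same in shRNA samples but for Clcn7 (12.2 ± 1.79) and Clcn6 (11.4 ± 2.66). These changed places, with Clcn7 higher in 3 of 4. Within samples, Clcn7 exceeded Clcn2 in 3 of 4 and Clcn5 exceeded Slc12a7 in 3 of 4. In shRNA 4, Clcn2 at 14.6 CPM per kb lay above Clcn3 (13.1), Clcn7 (11.5) and Clcn6 (8.97).

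**Figure D1:**
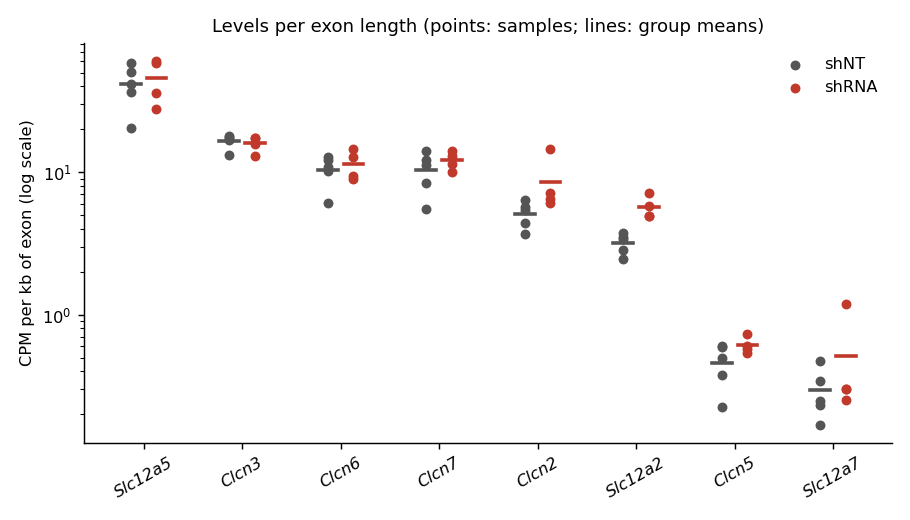
Level of each gene in CPM per kb of exon on a log axis, with 1 point per sample (5 shNT, 4 shRNA) and a line at each group mean. Slc12a5 lies highest at 20.5 to 58.6 CPM per kb in shNT samples, and Clcn5 and Slc12a7 lie lowest.

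The group comparison called 1 of the 8 genes. Slc12a2, which encodes the chloride importer NKCC1, was higher in shRNA samples, and no gene was called lower. A gene was called at an FDR under 0.05 over all tested genes and a change of at least 1.5-fold, and by this rule edgeR's quasi-likelihood test called 1.74% of all genes higher and 0.0133% lower. Before adjustment, Slc12a2 and Clcn2 had a p under 0.05 with a positive fold change and 0 of the 8 with a negative one, beside 20.7% and 13.4% of all genes, so 2 of 8 is near the share over all genes. The likelihood ratio test, DESeq2 and limma voom also called 0 of the 8 lower, beside 3.6%, 5.6% and 4.1% of all genes. The fold change was positive for 7 of the 8 genes, beside 57.9% of all genes, and the median log2 fold change of the 8 was 0.32 beside 0.11 over all genes. Fold changes rose with exon length, however, and all 8 genes have long exon sequence. With that trend removed, Slc12a2 (0.41), Slc12a7 (0.42) and Clcn2 (0.35) stayed positive. Slc12a5 (-0.32), Clcn3 (-0.82), Clcn5 (-0.21), Clcn6 (-0.26) and Clcn7 (-0.11) were then negative, beside a median of -0.14 over all genes.

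**Figure D2:**
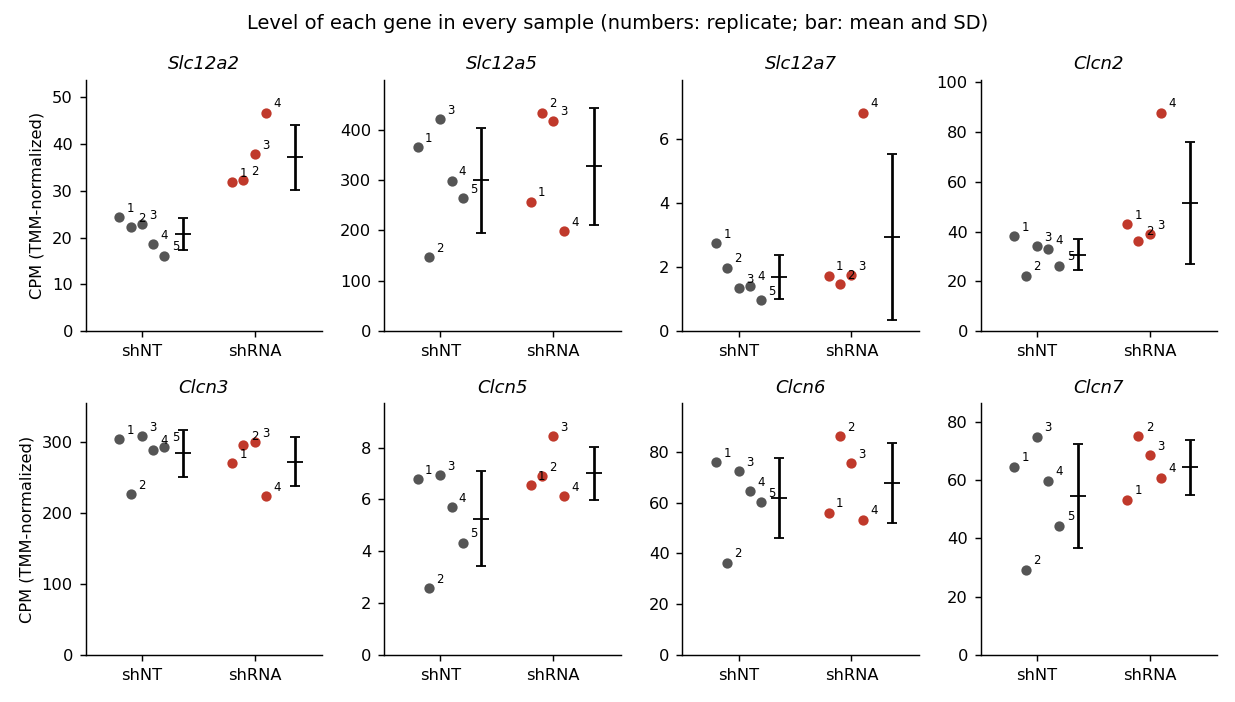
CPM of each gene in every sample on a linear axis from 0, with the replicate number beside each point and the mean ± SD of the group as a bar. The 4 shRNA samples lie above all 5 shNT samples for Slc12a2, while shRNA 4 alone lies far up for Slc12a7 and Clcn2, and shNT 2 lies low for Slc12a5, Clcn3, Clcn5, Clcn6 and Clcn7.

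Slc12a2 measured 24.4, 22.3, 22.9, 18.6 and 16.2 CPM in shNT 1 to 5. It measured 31.9, 32.3, 37.9 and 46.8 CPM in shRNA 1 to 4. The groups did not overlap, which held in the higher direction for 8.97% of all genes and for 1 of these 8. The means were 20.8 ± 3.38 CPM (n = 5) and 37.2 ± 6.93 CPM (n = 4), a 1.78-fold difference (95% interval 1.38 to 2.31; log2 0.84, SE 0.17; FDR 0.0417). The FDR lay close to its threshold. Without shRNA 4 the log2 fold change was 0.69 and the FDR 0.063, in a fit that called 142 of 14515 genes higher. Leaving out shNT 3, 4 or 5 or shRNA 1 or 3 also ended the call, with FDRs of 0.0744 to 0.169, in fits that called 0 of all genes. Without both shRNA 4 and shNT 2 the gene was called (log2 0.74). That fit called 678 of 14270 genes higher, against 262 of 15069 with all samples. The likelihood ratio test, DESeq2 and limma voom, which called 11.2%, 10.1% and 15.3% of all genes higher, each called Slc12a2 too. Adjusted for the percentage of reads outside exons in each library, the log2 fold change was 0.70 and the FDR 0.0903, and with the trend over exon length removed it was 0.41 and the FDR 0.12. In shNT 1 to 3 against shRNA 1 to 3, whose sample names share a number that the others do not, it was 0.52 with an FDR of 0.293. The cause of these shifts was not tested.

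Markers of other cell types differed between the groups as well, and 1.74% of all genes called higher and 20.7% higher at an unadjusted p under 0.05 are the shares to read them against. NKCC1 is also made by oligodendrocyte precursors (OPCs) and other glia. The summed CPM of 5 OPC markers was 38.3 to 68.1 in shNT and 76.8 to 111 in shRNA samples, without overlap, and 3 of the 5 (Pdgfra, Olig2 and Gpr17) were called higher. The summed CPM of 8 CA3/CA2 pyramidal markers was 577 to 1439 in shNT and 1510 to 1905 in shRNA samples, also without overlap, and 2 of the 8 (Grik4 and Cpne4) were called higher. Oligodendrocyte markers summed to 775 to 2406 and 1470 to 3059 CPM, with 0 of 8 called by the quasi-likelihood test and 7 of 8 higher at an unadjusted p under 0.05. Astrocyte markers summed to 1074 to 1525 and 1417 to 5624 CPM, with 0 of 10 called and 9 of 10 higher at an unadjusted p under 0.05, and only shRNA 3 and 4 lay above the shNT range. DG granule cell markers summed to 29.0 to 70.2 and 69.8 to 120 CPM, with 0 of 6 called and 4 of 6 higher at an unadjusted p under 0.05. Of 7 tested markers of other interneurons, 4 had positive and 3 negative fold changes. Reln and Cnr1 were called higher, while Sst, Npy and Cck had log2 fold changes of -0.45, -0.50 and -0.47 and were not called. The 7 summed to 533 to 909 CPM in shNT and 363 to 718 CPM in shRNA samples. All 12 PV IN markers had negative fold changes, with 0 called and 2 lower at an unadjusted p under 0.05, beside 13.4% of all genes. Markers of the choroid plexus, which is rich in NKCC1, summed to 3.33 to 6.62 CPM in shNT and 8.14 to 13.1 CPM in shRNA samples, with 2 of 7 below the filter. Not one marker in these lists was at 0 in all samples. Their part in the Slc12a2 difference was not tested.

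Slc12a5 measured 365, 147, 421, 298 and 264 CPM in shNT 1 to 5 and 257, 434, 418 and 199 CPM in shRNA 1 to 4. The groups overlapped across most of their range, with the lowest value in shNT 2 and the next lowest in shRNA 4. These are the shNT and the shRNA sample with the lowest PV IN marker sums of their groups. The means were 299 ± 104 and 327 ± 117 CPM, a log2 fold change of 0.13 (SE 0.31, 95% interval -0.56 to 0.81; FDR 0.788), so the interval still holds a fall to 0.679-fold and a rise to 1.76-fold. The log2 fold change was -0.04 without shNT 2 and 0.31 without shRNA 4. Adjusted for the percentage of reads outside exons, it was 0.67 (FDR 0.0977).

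The ratio of Slc12a5 to Slc12a2 was computed within each sample, per kb of exon, where library scaling cancels. It was 13.6, 5.99, 16.7, 14.6 and 14.9 in shNT 1 to 5 and 7.32, 12.2, 10.02 and 3.87 in shRNA 1 to 4. All shRNA samples lay below shNT 1, 3, 4 and 5, and shNT 2 lay within the shRNA range. On the log2 scale the means were 3.64 ± 0.60 and 2.94 ± 0.73, a difference of -0.70, with a two-sided exact permutation p of 0.175, the smallest possible with these group sizes being 0.00794. Without shNT 2 the difference was -0.96 with an exact permutation p of 0.0286, and without both shNT 2 and shRNA 4 it was -0.63, p = 0.0286 (exact permutation), so 1 control library decided which side of 0.05 the test fell on. Both reach the smallest p of their designs because leaving out shNT 2 removes the overlap. Without shRNA 4 alone the difference was -0.37 (exact permutation p of 0.411), and in name set 31 (shNT 1 to 3 and shRNA 1 to 3) it was -0.20 (exact permutation p of 0.7). The 3 samples with more than 18% of reads outside exons, shNT 2, shRNA 1 and shRNA 4, had the 3 lowest ratios. The part of that share in the ratio was not tested.

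**Figure D3:**
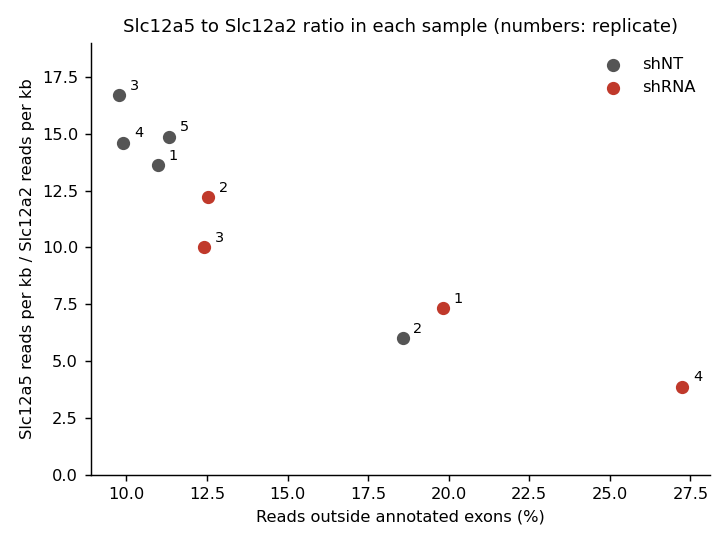
Ratio of Slc12a5 to Slc12a2 reads per kb of exon in each sample (y axis) against the percent of reads outside annotated exons (x axis), with the replicate number beside each point. The shNT samples 1, 3, 4 and 5 lie at 13.6 to 16.7, and shNT 2, shRNA 1 and shRNA 4 lie lowest at 3.87 to 7.32 and farthest to the right.

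Slc12a7 was near the limit of detection, with 28 to 151 reads per sample. It measured 2.74, 1.97, 1.34, 1.41 and 0.972 CPM in shNT 1 to 5 and 1.73, 1.46, 1.74 and 6.81 CPM in shRNA 1 to 4. Only shRNA 4 lay above the shNT range. The log2 fold change was 0.79 (SE 0.50, 95% interval -0.30 to 1.89; FDR 0.269), and it was -0.056 without shRNA 4.

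Clcn2 encodes ClC-2, a channel opened by hyperpolarization that lets chloride leave neurons. It measured 38.1, 22.4, 34.1, 32.9 and 26.3 CPM in shNT 1 to 5 and 43.0, 36.3, 39.0 and 87.9 CPM in shRNA 1 to 4. The groups overlapped only through shNT 1 and shRNA 2, and shRNA 4 stood far above the rest. The means were 30.8 ± 6.32 and 51.5 ± 24.4 CPM, a log2 fold change of 0.74 (SE 0.27, 95% interval 0.16 to 1.33). The FDR was 0.0884 and the gene was not called; the likelihood ratio test called it at an FDR of 0.0463. Without shRNA 4 the log2 fold change was 0.35 (FDR 0.185). ClC-2 is also found in astrocytes and oligodendrocytes, whose marker sums were both highest in shRNA 4, and their part in the difference was not tested.

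Among the intracellular exchangers, Clcn3 varied least. It measured 303, 226, 308, 289 and 293 CPM in shNT 1 to 5 and 270, 295, 299 and 223 CPM in shRNA 1 to 4. The 2 low values were again those of shNT 2 and shRNA 4, and the groups overlapped. The log2 fold change was -0.06 (SE 0.15, 95% interval -0.40 to 0.28; FDR 0.791), so changes beyond 0.758-fold and 1.21-fold lay outside the interval. Clcn3 has the longest exon sequence of the 8 genes at 17.1 kb, at the 99.5th percentile of tested genes. Fold changes in these data rose with exon length, and removing that trend took 0.76 from the log2 fold change of Clcn3 and made it the only one of the 8 genes called lower (-0.82, FDR 0.0301), beside 5.32% of all genes called lower in that fit. The exon lengths of all 8 genes lay at or above the 72.3rd percentile, and the trend took at least 0.35 from each.

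Clcn6 and Clcn7 encode the exchangers of late endosomes and lysosomes. Clcn6 measured 75.8, 36.3, 72.3, 64.5 and 60.04 CPM in shNT 1 to 5 and 56.0, 86.1, 75.4 and 53.2 CPM in shRNA 1 to 4. Clcn7 measured 64.5, 29.1, 74.8, 59.7 and 44.3 CPM in shNT 1 to 5 and 53.2, 75.0, 68.6 and 60.7 CPM in shRNA 1 to 4. For both genes shNT 2 was the lowest sample and shRNA 2 the highest, and the groups overlapped. The log2 fold changes were 0.13 (95% interval -0.36 to 0.62; FDR 0.693) for Clcn6 and 0.24 (-0.29 to 0.77; FDR 0.487) for Clcn7. Without shNT 2 they were -0.010 and 0.082. Clcn5 rested on 56 to 202 reads per sample and measured 6.79, 2.57, 6.93, 5.70 and 4.33 CPM in shNT 1 to 5 and 6.55, 6.89, 8.44 and 6.13 CPM in shRNA 1 to 4. Its groups overlapped as well, with shNT 2 lowest and shRNA 3 highest (log2 fold change 0.41, 95% interval -0.20 to 1.02; FDR 0.305), and the log2 fold change was 0.24 without shNT 2. Adjusted for the percentage of reads outside exons, the estimates were 0.49 for Clcn6, 0.55 for Clcn7 and 0.74 for Clcn5, with FDRs of 0.113, 0.166 and 0.124.

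**Figure D4:**
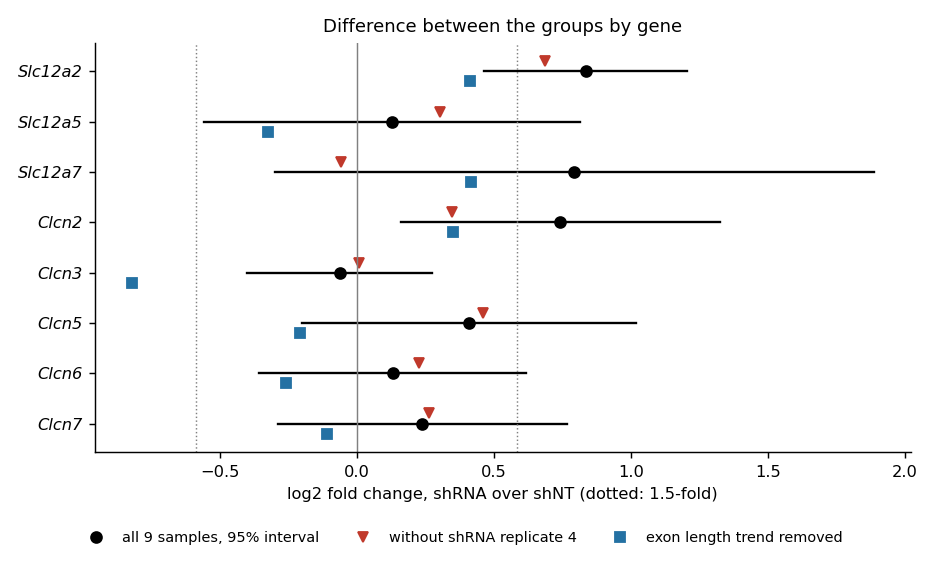
Log2 fold change of shRNA over shNT for each gene, with the 95% interval over all 9 samples (black), the estimate without shRNA 4 (red triangle) and the estimate after the exon length trend was removed (blue square). The interval of Slc12a2 (0.47 to 1.21) and that of Clcn2 (0.16 to 1.33) exclude 0, and the Clcn3 estimate moves from -0.06 to -0.82 once the trend is removed.

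Over the 9 samples the 8 genes followed a few patterns. The distance between a pair of genes was taken as the root mean square difference of their centred log2 CPM. Clcn5 and Clcn7 were the closest pair (0.16), followed by Clcn6 and Clcn7 (0.18) and by Slc12a5 and Clcn6 (0.19), all with a low shNT 2. Slc12a2 was nearest to Clcn2 (0.32) and farther from Slc12a5 (0.67), and Slc12a5 and Slc12a7 were the farthest pair (1.04). Among 9492 genes averaging at least 10 CPM, the 3 nearest to Slc12a5 were Slc7a8, Atp6v0a1 and Ap1b1 (0.053 to 0.066), and the 3 nearest to Slc12a2 were Kdm2b, Stag2 and Klhl23 (0.074 to 0.10). The points of these patterns share the libraries, with their depth and cell makeup.

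**Figure D5:**
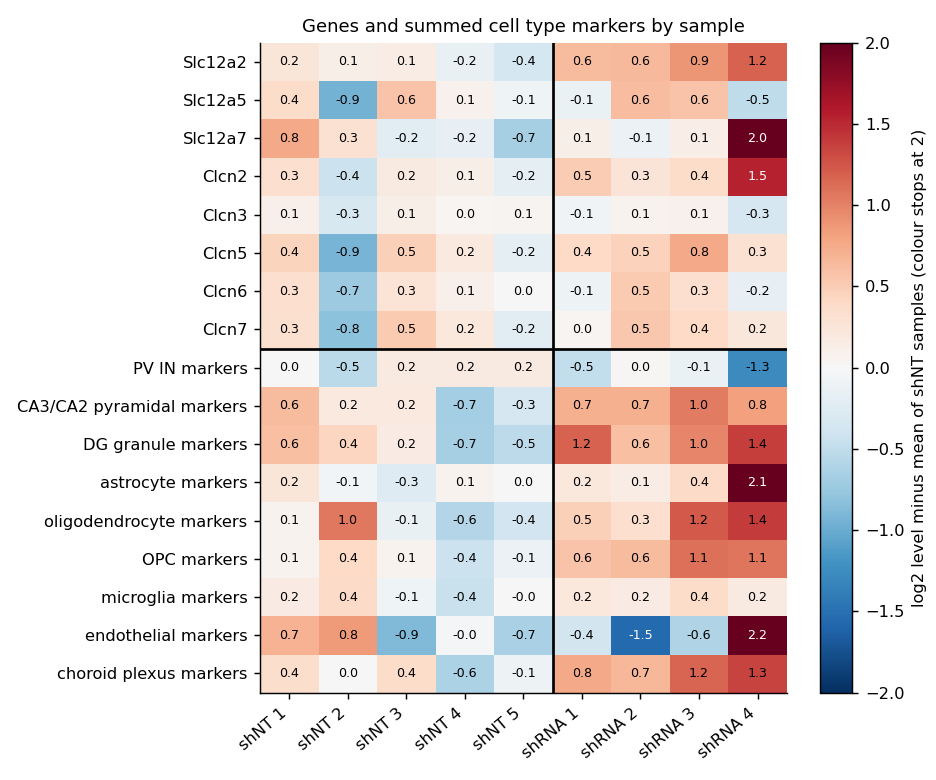
Log2 level minus the mean of the shNT samples for the 8 genes (top) and for the summed CPM of 9 cell type marker lists (bottom), by sample, in red where higher and blue where lower. In shRNA 4, Slc12a7 and Clcn2 are high together with astrocyte and endothelial markers, and in shNT 2 Slc12a5, Clcn5, Clcn6 and Clcn7 are low together with PV IN markers.

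The other genes that move or regulate chloride were taken as 6 lists of 50 genes, of which 41 were tested. By the quasi-likelihood test not one was called (0 of 41), while 12 had an unadjusted p under 0.05 and a positive fold change and 0 had one with a negative fold change, beside 20.7% and 13.4% of all genes. The likelihood ratio test called 8 higher, and DESeq2 and limma voom called 7 each, beside 11.2%, 10.1% and 15.3% of all genes. The median log2 fold change was 0.28 beside 0.11 over all genes, with 28 of 41 positive. Without shRNA 4, 40 were tested, 0 were called, and 8 had a positive and 1 a negative fold change with a p under 0.05 before adjustment. The median was 0.19 beside 0.03 over all genes, and 142 of 14515 genes were called higher and 0 lower in that fit. The share of all genes with a p under 0.05 in that fit was not computed, so the 8 and the 1 cannot be set against it. The groups did not overlap for 5 of the 41 genes, all higher in shRNA samples, against 8.97% of all genes in that direction, and for 0 in the lower direction, against 6.68%. Among these were Slc12a9, Oxsr1, Hepacam and Slc4a7, named here after their values were seen.

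Of the other cation-chloride cotransporters, 4 of 6 were tested. Slc12a9 stood at 14.2 ± 1.67 CPM in shNT and 19.2 ± 4.09 CPM in shRNA samples (log2 fold change 0.44, FDR 0.101; 0.26 without shRNA 4). The kidney cotransporter genes Slc12a1 and Slc12a3 were below the filter. Of the remaining ClC genes and the ClC-7 partner Ostm1, Clcn4-2 stood at 263 ± 40.1 and 244 ± 38.2 CPM (-0.11, FDR 0.673) and Ostm1 at 119 ± 17.1 and 107 ± 11.9 CPM (-0.15, FDR 0.473). At 57.4 CPM per kb in shNT samples, Clcn4-2 lay above all 5 ClC genes described above. Without division by exon length it lay below Clcn3, which stood at 284 CPM.

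In the kinase list, Cab39, which encodes the MO25 scaffold of these kinases, was 287 ± 61.3 and 267 ± 65.3 CPM (log2 fold change -0.11, FDR 0.740). Stk39, which encodes SPAK, was 151 ± 24.0 and 114 ± 24.9 CPM (-0.40, 95% interval -0.81 to 0.01; FDR 0.154). Oxsr1, which encodes the related kinase OSR1, was 18.96 ± 0.878 and 26.7 ± 4.82 CPM (0.49, FDR 0.0654). The 2 kinases that act on NKCC1 and the KCCs thus had estimates of opposite sign, and neither was called.

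In the list of partners and sodium pump subunits, Atp1b1 was 5290 ± 1141 and 3655 ± 1006 CPM (log2 fold change -0.53, FDR 0.161). Hepacam, a glial adhesion protein that binds ClC-2, was 18.3 ± 1.97 and 44.1 ± 32.5 CPM (1.26, FDR 0.0632), and its log2 fold change was 0.59 without shRNA 4 (FDR 0.0752). Among other chloride channel genes, Ttyh1 was 122 ± 8.55 and 165 ± 54.9 CPM (0.44, FDR 0.136; 0.16 without shRNA 4) and Ttyh3 76.9 ± 12.7 and 84.7 ± 8.54 CPM (0.14, FDR 0.523). Among bicarbonate transporters and carbonic anhydrases, Car2 was 128 ± 10.5 and 144 ± 29.0 CPM (0.18, FDR 0.411) and the chloride/bicarbonate exchanger gene Slc4a3 224 ± 38.4 and 215 ± 28.7 CPM (-0.06, FDR 0.823). Slc4a7, a sodium-bicarbonate cotransporter gene, came nearest to a call at 18.02 ± 3.05 and 29.98 ± 4.81 CPM (0.73, FDR 0.0502). Such values were common, since 10.9% of all genes had an FDR of 0.05 to 0.1 with a rise of at least 1.5-fold.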

How the data were processed

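The samples are 5 shNT and 4 shRNA RiboTag libraries (SMARTer v4), each from a pool of 6 mice. The authors aligned reads to mm9 with STAR and counted reads per gene with HTSeq 0.6.0, and the deposited values are these raw counts, with no normalization. The name of their annotation was not given in the sources used here. GENCODE vM1 on the same build gave symbols for 37205 of 37620 identifiers, positions and exon lengths. The exon length of a gene counted every base in an exon of any of its annotated transcripts, so levels per kb depend on that annotation. Reads outside exons, ambiguous reads and multiple alignments stayed out of library sizes. Depth was 18281719 to 34578837 gene reads per sample.

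Genes under 1 CPM in all samples were removed. After TMM normalization, counts were tested with the quasi-likelihood test of edgeR 4.0.16 in R 4.3.3, with group as the only term and Benjamini-Hochberg adjustment over 15069 genes. Calls needed an FDR under 0.05 and 1.5-fold. Levels are TMM-normalized CPM, with a prior count of 2 on the log2 scale. The SE is the log2 fold change over the root of the F statistic, and the 95% interval uses its degrees of freedom. The sample ratio had an exact permutation test. Alternatives were the likelihood ratio test, DESeq2 1.42.0, limma 3.58.1 voom, other scalings and filters, blocks, covariates, and leaving out samples. The script was tested on simulated data. The 8 genes, the lists and the tests were chosen with earlier results of these data known. All 8 genes were described. From each list, called genes and the 2 with the highest level per kb were named, with others named as such. Start-site windows came from RefSeq (GRCm38.p6), and sequence of Slc12a2 and the values of some list genes are not reported here.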

Additional observations from a re-analysis of the deposited data

Results flagged for a closer look

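In 6 of 40 sets of values, the highest or lowest sample of a group stood apart from the others by Dixon's 95% criterion, where chance gives about 2. Clcn3 was 226 CPM in shNT 2 against 289 to 308 CPM in the other shNT samples. The log2 ratio of Slc12a5 to Slc12a2 was 2.58 in shNT 2 against 3.77 to 4.06. The same sample had 18.6% of reads outside exons against 9.76 to 11.3%, and a PV IN marker sum of 5371 CPM against 7838 to 8791. Slc12a7 was 6.81 CPM in shRNA 4 against 1.46 to 1.74 CPM in the other shRNA samples, and the astrocyte marker sum of that sample was 5624 CPM against 1417 to 1671. These 6 values fall in 2 samples, so they are not independent of each other.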

How the results depend on the processing

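Of the 8 genes, 1 was called higher, against 2 with the likelihood ratio test (Clcn2 joined at a log2 fold change of 0.74) and 0 with library size only, upper quartile scaling, filterByExpr, the replicate block, sample name set 31 alone, the percentage of reads outside exons as a covariate or the exon length trend removed, and 0 to 1 with a sample left out. The log2 fold change of Slc12a2 in these fits was 0.90 (library size only, FDR 0.0708), 0.85 (upper quartile, 0.0689), 0.76 (filterByExpr, 0.0646), 0.74 (replicate block, 0.296), 0.52 (name set 31, 0.293), 0.70 (covariate) and 0.41 (length trend), and 0.66 to 0.90 with a sample left out, positive in all 23 alternatives. Several of these fits called 0 of all genes, against 262 higher in the main comparison: library size only, upper quartile, filterByExpr, name set 31, the covariate, and the fits without shNT 3, 4 or 5 or without shRNA 1 or 3. The number called lower was 0, and 1 (Clcn3, -0.82) with the length trend removed, where 800 of 15047 genes were called lower. The causes were not tested.

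Estimates that changed sign without being called were Slc12a5 at -0.32, Clcn5 at -0.21, Clcn6 at -0.26 and Clcn7 at -0.11 with the length trend removed, Slc12a7 at -0.33 in name set 31 and -0.16 with the covariate, and Clcn3 at 0.021 with limma voom, 0.015 in name set 31 and 0.13 with the covariate. With the covariate Slc12a5 was at 0.67, Clcn5 at 0.74, Clcn6 at 0.49 and Clcn7 at 0.55, none of them called. With a sample left out, the ranges that crossed 0 were -0.076 to 0.31 for Slc12a5, -0.056 to 1.04 for Slc12a7, -0.19 to 0.0083 for Clcn3 and -0.010 to 0.23 for Clcn6. The ratio of Slc12a5 to Slc12a2 differed by -0.96 to -0.37 with a sample left out, by -0.63 without shRNA 4 and shNT 2 together, and by -0.20 in name set 31. Samples with the same replicate number deviated together only for replicate 3 (correlations of -0.27, -0.64, 0.49 and -0.18 for replicates 1 to 4), so the numbers were not used as pairs in the main comparison. Under the replicate block the ratio differed by -0.63 over 4 pairs, with shNT 5 left out. The exact sign-flip test of the pairs gave a p of 0.5, the smallest possible being 0.125. The edgeR fit with that block called 29 of all genes higher. Slc12a7 and Clcn5 are limited by depth at 28 and 56 reads in their lowest samples.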
